A study of Glycine max with 8 samples.

Results

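The genes described here are 6 soybean (Glycine max) loci that are widely used as internal references in quantitative PCR. They are ACT11 (Glyma.18G290800, chromosome 18), CYP2 (Glyma.12G024700, chromosome 12), ELF1B (Glyma.02G276600, chromosome 2), Cons4 (Glyma.12G020500, chromosome 12), Cons6 (Glyma.12G051100, chromosome 12) and SUBI (Glyma.20G141600, chromosome 20). They were taken by locus from a list of reference genes, not by any value measured here, and make up 6 of the 47268 loci listed in the deposited tables. RNA-seq libraries came from seedlings of 2 genotypes under 2 treatments, with 2 libraries in each of the 4 groups. In OE NaCl and OE mock, seedlings over-expressed GmSIN1, a NAC transcription factor gene. In WT NaCl and WT mock, seedlings were of the conventional line WEI6823, which is wild type for GmSIN1. All seedlings were 2 weeks old and grown hydroponically, NaCl seedlings received 150 mM NaCl for 6 h and mock seedlings a mock treatment of the same length. RNA of roots and leaves was mixed in equal parts, so every value is an average over both organs, and fewer cells of a type cannot be told apart from less RNA per cell. The promoter of the transgene, the number of over-expressing lines and the number of plants per library are not stated in the labels used here.

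A reference gene serves quantitative PCR by being assumed to hold the same level in every sample, so that the level of another gene can be given relative to it. The 6 genes do different basic work in the cell. ACT11 encodes actin, the subunit of the microfilaments of the cytoskeleton. SUBI encodes polyubiquitin, a chain of ubiquitin units that is cut into the single units used to tag proteins for breakdown, and Cons6 encodes an F-box protein, a class that picks the proteins to be tagged by ubiquitin ligases. CYP2 encodes a cyclophilin, a prolyl isomerase that helps proteins fold. ELF1B encodes the beta subunit of translation elongation factor 1, which recharges the factor that brings aminoacyl-tRNA to the ribosome. Cons4 encodes an ABC (ATP-binding cassette) transporter, a class of proteins that use ATP to move compounds across membranes.

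The libraries held 5980170 to 7199775 expected counts each, and 34023 loci were abundant enough to be tested. A group's libraries share only a genotype and a treatment, and nothing in the labels beyond the words biological replicates says that they came from separate plants, so p-values measure the spread between these libraries. The 4 WT libraries were close to each other, whereas OE libraries of 1 group differed more. Over the 18520 loci with a mean of at least 10 CPM (counts scaled to library size), the log2 difference between library 2 and library 1 had an SD of 1.03 in OE NaCl and 0.79 in OE mock, against 0.20 in WT NaCl and 0.22 in WT mock. These differences ran in parallel in the 2 OE groups, so OE libraries of equal number were not independent of each other. The tests between genotypes, of NaCl against mock in OE and of the interaction all assume that they were. Shared differences cancel between OE NaCl and OE mock but stay in the error of that test. Its p can therefore be too large. The tissue markers and GmSIN1 itself could not be looked up, because the files pair no gene names with their locus IDs and the reference table pairs none of these IDs with a name.

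All 6 genes were detected in all 8 libraries. The lowest expected count was 247 for Cons4 and the highest was 27698 for SUBI, against a floor of 3 counts that corresponds to 0.417 to 0.502 CPM. Five-prime and three-prime regions outside the coding sequence were not part of the listed lengths, all of which were multiples of 3. The coding lengths were 1332 bases for Cons6, 1134 for ACT11, 954 for Cons4, 918 for SUBI, 672 for ELF1B and 519 for CYP2. Counts were fractional in all 8 libraries for 5 of the genes and in 7 libraries for ELF1B, so some reads of each gene also matched other models and the split between near-identical copies is uncertain. Cons4 was listed as 3 models with identical counts, which were summed. Cons4, CYP2 and Cons6 lie on the same chromosome, with 40 listed loci between Cons4 and CYP2 and 244 between CYP2 and Cons6.

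Compared per length, in FPKM (fragments scaled to gene length and sequencing depth, as deposited), SUBI was the highest of the 6 genes and Cons6 or Cons4 the lowest. SUBI averaged 2154 ± 226 FPKM in OE libraries and 4125 ± 53.6 FPKM in WT libraries (SD, n = 4 each). CYP2 averaged 1283 ± 433 FPKM in OE libraries and 540 ± 21.4 FPKM in WT libraries. ACT11 stood at 92.2 ± 24.4 FPKM in OE libraries and 171 ± 10.4 FPKM in WT libraries. Neighbouring genes in this upper part of the order did not overlap within a genotype. ELF1B averaged 84.9 ± 19.3 FPKM in OE libraries and 87.2 ± 3.37 FPKM in WT libraries. Cons4 averaged 44.4 ± 5.69 FPKM in OE libraries and 57.3 ± 4.23 FPKM in WT libraries, and Cons6 averaged 41.8 ± 2.36 and 43.4 ± 2.60 FPKM in OE and WT libraries. This order held in 7 of the 8 libraries. In OE mock library 2, ELF1B exceeded ACT11 and Cons6 exceeded Cons4. Among OE libraries the FPKM ranges of ACT11 and ELF1B overlapped, as did those of Cons4 and Cons6, so these neighbours could not be ordered there, while in WT libraries no neighbouring ranges overlapped. The highest of the 6 genes exceeded the lowest by 44.4-fold to 102-fold within a library.

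**Figure D1:**
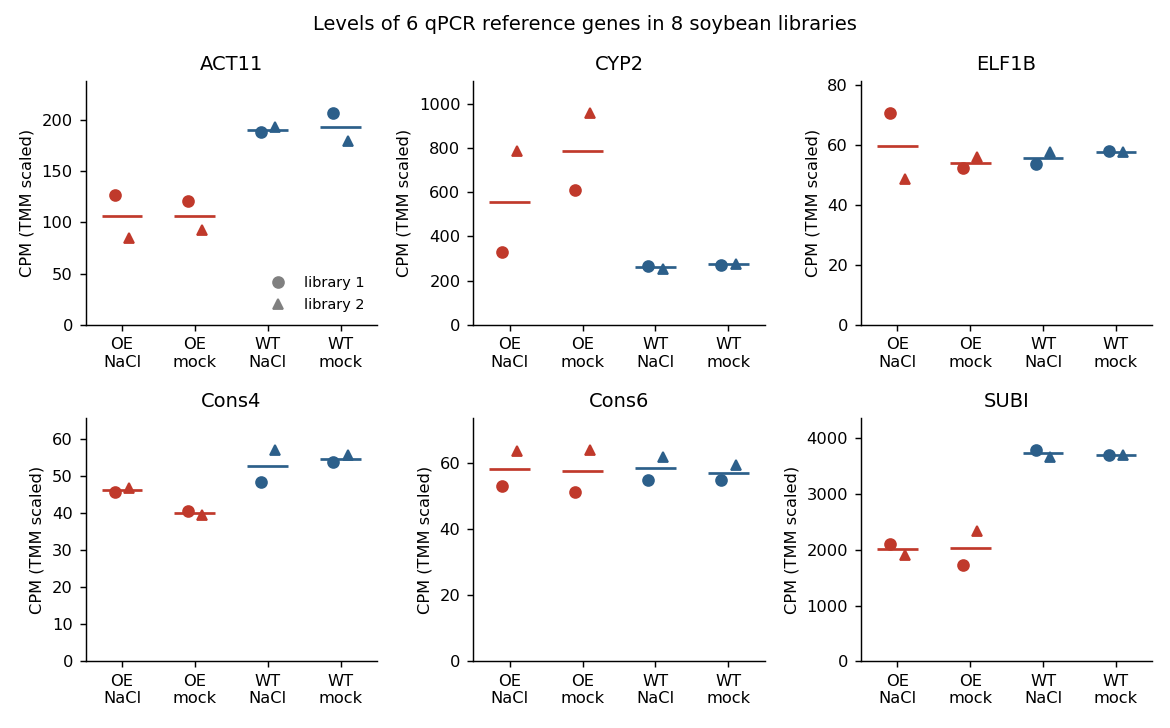
CPM after TMM scaling (vertical axis, from 0, a separate scale for each gene) of the 6 genes in each library of the 4 groups (horizontal axis); circles are library 1, triangles library 2, and bars the mean of 2 libraries. ACT11 and SUBI lay lower and CYP2 higher in every OE library than in every WT library, whereas ELF1B and Cons6 overlapped between the genotypes.

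The first comparison asked whether the levels of these genes differed between seedlings with and without GmSIN1 over-expression. ACT11 and SUBI fell in OE seedlings and CYP2 rose, by edgeR's quasi-likelihood test on the mean of both treatments with Benjamini-Hochberg adjustment over all 34023 loci at 0.05. These calls and directions were the same with RLE, upper-quartile or library-total scaling. They were also the same with the 6 genes as the scale, but that scale is made of the tested genes themselves. Directions turned only where SUBI was the sole scale for ACT11 (log2 fold change 0.048) or ACT11 the sole scale for SUBI (0.022). Calls were also lost with Cons4 as the sole scale for ACT11 and SUBI (edgeR adjusted p = 0.0783 and 0.0749). The same held with Cons6 as the sole scale for ACT11 (edgeR adjusted p = 0.0533), and for all 3 genes without any 1 WT library. Cons4, ELF1B and Cons6 did not pass. The 3 called genes of 6 stand beside 28.9% of all tested loci called in the same comparison, of which 15.4% were called higher and 13.5% lower. The median absolute log2 fold change was 0.59 for the 6 genes and 0.52 for all tested loci, but the 6 genes were split and none lay near their median. Their log2 fold changes were 0.00 for ELF1B and Cons6 and -0.32 for Cons4, against -0.85 for ACT11, -0.88 for SUBI and 1.31 for CYP2. Each of the 6 genes also had a higher level than at least 86.8% of the tested loci, so the 2 medians are not matched for level.

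SUBI, the polyubiquitin gene, had 2098 and 1918 CPM in OE NaCl libraries 1 and 2 and 1738 and 2336 CPM in OE mock libraries, against 3802 and 3673 CPM in WT NaCl libraries and 3703 and 3700 CPM in WT mock libraries. Every OE library lay below every WT library. SUBI averaged 2023 ± 255 CPM in OE and 3720 ± 56.7 CPM in WT libraries (SD, n = 4 each), a 0.544-fold level with a log2 fold change of -0.88 (SE 0.17, 95% interval -1.28 to -0.48, edgeR adjusted p = 0.0118). It took 0.197% of all counts in OE libraries and 0.378% in WT libraries. Cons6, the F-box gene of the same ubiquitin system, showed no such difference. It had 52.8 and 63.4 CPM in OE NaCl libraries and 51.0 and 63.9 CPM in OE mock libraries, against 54.8 and 61.7 CPM in WT NaCl and 54.9 and 59.1 CPM in WT mock libraries. The genotypes overlapped, and the log2 fold change was 0.00 (SE 0.14, 95% interval -0.33 to 0.34, edgeR adjusted p = 0.987).

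CYP2, the cyclophilin gene, had 331 and 785 CPM in OE NaCl libraries and 611 and 960.2 CPM in OE mock libraries, against 267 and 251 CPM in WT NaCl and 272 and 276 CPM in WT mock libraries. Every OE library lay above every WT library, but OE NaCl library 1 lay much nearer to WT than the other OE libraries did. CYP2 averaged 672 ± 268 CPM in OE and 267 ± 10.7 CPM in WT libraries (SD, n = 4 each), a 2.48-fold level with a log2 fold change of 1.31 (SE 0.30, 95% interval 0.60 to 2.03, edgeR adjusted p = 0.0207). Of all tested loci, 81.9% had a smaller absolute log2 fold change than CYP2.

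ACT11, the actin gene, had 127 and 84.9 CPM in OE NaCl libraries and 121 and 92.3 CPM in OE mock libraries, against 188 and 193 CPM in WT NaCl and 207 and 180.0 CPM in WT mock libraries. The genotypes did not overlap. ACT11 averaged 106 ± 20.7 CPM in OE and 192 ± 11.4 CPM in WT libraries (SD, n = 4 each), a 0.553-fold level with a log2 fold change of -0.85 (SE 0.18, 95% interval -1.29 to -0.42, edgeR adjusted p = 0.0167).

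ELF1B, the elongation factor gene, had 70.8 and 48.7 CPM in OE NaCl libraries and 52.2 and 56.1 CPM in OE mock libraries, against 53.7 and 57.6 CPM in WT NaCl and 58.0 and 57.5 CPM in WT mock libraries. OE NaCl held both the highest and the lowest of the 8 values, and the genotypes overlapped. The log2 fold change was 0.00 (SE 0.15, 95% interval -0.36 to 0.37, edgeR adjusted p = 0.986). Cons4, the ABC transporter gene, had 45.7 and 46.9 CPM in OE NaCl libraries and 40.6 and 39.6 CPM in OE mock libraries, against 48.3 and 57.2 CPM in WT NaCl and 53.9 and 55.7 CPM in WT mock libraries. The genotypes did not overlap, although OE NaCl library 2 and WT NaCl library 1 were close. Cons4 averaged 43.2 ± 3.65 CPM in OE and 53.8 ± 3.88 CPM in WT libraries (SD, n = 4 each), with a log2 fold change of -0.32 that missed the threshold (SE 0.12, 95% interval -0.61 to -0.03, edgeR adjusted p = 0.0877). In all, 4 of the 6 genes had no overlap between the 4 OE and the 4 WT libraries, 1 of them higher and 3 lower in OE, and 38.7% of all tested loci also had none (18.3% higher and 20.4% lower).

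Within a single treatment no gene passed the threshold. The fold changes of SUBI and ACT11 were close to each other in NaCl and mock, those of CYP2 and Cons4 were smaller in NaCl, and ELF1B had opposite signs. In NaCl, 0 of 6 genes were called by edgeR at an adjusted p of 0.05, where 7.89% of loci were called (3.62% higher and 4.27% lower), and 3 genes had an unadjusted p under 0.05. In mock, 0 of 6 were called where 8.92% of loci were called (4.2% higher and 4.72% lower), and 4 genes had an unadjusted p under 0.05. The log2 fold changes of SUBI were -0.90 in NaCl and -0.86 in mock (edgeR adjusted p = 0.0659 and 0.0683). Those of ACT11 were -0.85 and -0.86 (edgeR adjusted p = 0.0920 and 0.0821), and those of CYP2 were 1.11 and 1.52 (edgeR adjusted p = 0.149 and 0.0720). Cons4 had log2 fold changes of -0.19 in NaCl and -0.45 in mock (edgeR adjusted p = 0.511 and 0.134), and ELF1B had 0.10 and -0.09 (edgeR adjusted p = 0.797 and 0.798). The value of CYP2 in NaCl rested on 1 library: it was 1.59 without OE NaCl library 1 (edgeR adjusted p = 0.0154) and 0.35, which was not called, without OE NaCl library 2. In mock, ACT11, CYP2 and SUBI were called when either OE NaCl library was left out, together with 22.8% or 23.1% of loci. DESeq2 called 1 gene in NaCl (SUBI), where it called 13.6% of loci, and 3 in mock (ACT11, CYP2 and SUBI), where it called 15.1%. With limma-voom 0 genes were called in either treatment, beside 6.16% of loci in NaCl and 6.67% in mock.

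The calls on the mean of both treatments were lost without any 1 WT library. In these fits the edgeR adjusted p was 0.0728 to 0.0901 for ACT11, 0.0811 to 0.0918 for CYP2 and 0.0679 to 0.0738 for SUBI, and 0 of 6 genes were called. The share of all loci called was 8.64% to 9.25% in the same fits, against 28.9% with all libraries. CYP2 also missed the threshold without OE mock library 2 (edgeR adjusted p = 0.0538), where 19.7% of loci were called. The log2 fold changes without 1 library stayed at -0.73 or below for ACT11, at 0.93 or above for CYP2 and at -0.78 or below for SUBI.

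**Figure D2:**
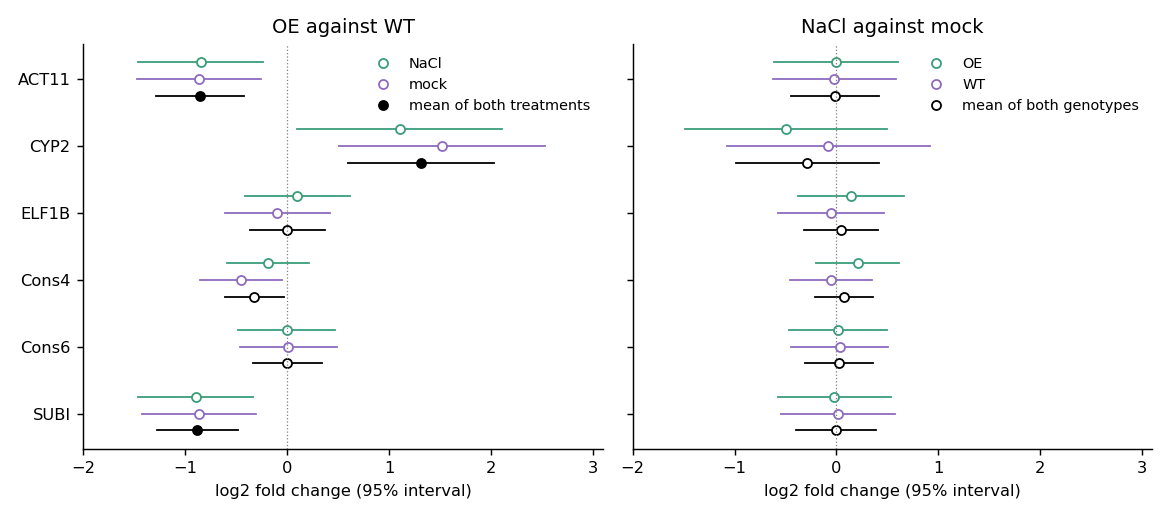
Log2 fold change (horizontal axis) with its 95% interval for each gene, OE against WT on the left and NaCl against mock on the right; filled points passed an edgeR adjusted p of 0.05. ACT11, SUBI and CYP2 passed in the mean of both treatments of OE against WT, and 0 genes passed in NaCl against mock.

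The second comparison asked whether 6 h of 150 mM NaCl changed the levels. No gene was called in either genotype. In OE seedlings the log2 fold change of NaCl against mock was -0.49 for CYP2 (SE 0.42, 95% interval -1.49 to 0.50), 0.21 for Cons4 (SE 0.17, 95% interval -0.20 to 0.61) and 0.14 for ELF1B (SE 0.22, 95% interval -0.37 to 0.66), and between -0.02 and 0.02 for the other 3 genes. The values of CYP2 and ELF1B depended on single libraries. Without OE NaCl library 1 they were -0.0024 and -0.15, and without OE NaCl library 2 they were -1.25 and 0.38. In WT seedlings the log2 fold changes of all 6 genes lay between -0.08 and 0.03, with standard errors of 0.17 to 0.42. These standard errors rest on a spread shared by all 4 groups, OE libraries included. Over the 4 WT libraries alone, the SD of log2 CPM ran from 0.02 for SUBI to 0.11 for Cons4. The adjusted p by edgeR was 1 for every gene in both genotypes, and 0 of 34023 loci were called. An unadjusted p under 0.05 was found at 507 loci in OE, at 111 loci in WT and at 0 of the 6 genes. A share of about 0.05 of the 34023 loci would fall there by chance, which is more than either count. The tests of NaCl were therefore cautious, and a lack of calls does not show that NaCl changed nothing. DESeq2 and limma-voom also called 0 loci in either genotype. The 6 genes had a median absolute log2 fold change of 0.08 in OE and 0.04 in WT, against 0.21 and 0.12 over all tested loci. Over the 4 NaCl and the 4 mock libraries, 0 of 6 genes were free of overlap, beside 0.461% of loci (0.197% higher and 0.265% lower).

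The interaction, which tests whether the response to NaCl differed between OE and WT, called 0 genes and 0 loci by edgeR, DESeq2 and limma-voom, with an unadjusted p under 0.05 at 231 loci. Its size was -0.41 for CYP2 on the log2 scale (SE 0.59, 95% interval -1.82 to 0.99), 0.26 for Cons4 (SE 0.24, 95% interval -0.31 to 0.83) and 0.20 for ELF1B (SE 0.31, 95% interval -0.53 to 0.93). The interaction of CYP2 came to 0.076 when library 1 of OE NaCl was omitted and to -1.18 when library 2 was. The intervals are wide with 2 libraries in each group, and a p that misses the threshold does not show that the genotypes responded alike.

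Libraries of 1 OE group differed in some of these genes by nearly as much as the genotypes did. CYP2 was higher in library 2 than in library 1 by a log2 difference of 1.24 in OE NaCl and 0.65 in OE mock, against -0.09 in WT NaCl and 0.02 in WT mock. ACT11 was lower in library 2 by -0.58 in OE NaCl and -0.38 in OE mock, against 0.04 in WT NaCl and -0.20 in WT mock. ELF1B and SUBI did not keep a direction between the OE groups. ELF1B differed by -0.54 in OE NaCl and 0.10 in OE mock, and SUBI by -0.13 in OE NaCl and 0.43 in OE mock, while in the WT groups both differed by 0.10 or less in size. Cons6 was slightly higher in library 2 in all 4 groups, by 0.26 in OE NaCl, 0.32 in OE mock, 0.17 in WT NaCl and 0.11 in WT mock. Cons4 differed by 0.04 in OE NaCl and -0.04 in OE mock, and by 0.24 in WT NaCl and 0.05 in WT mock.

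Each OE library was also set against the mean of the 2 WT libraries of its treatment. The directions between genotypes were then kept for the genes that differed. The log2 difference, averaged over treatments, was -0.63 for OE libraries numbered 1 and -1.11 for those numbered 2 for ACT11. It was 0.75 and 1.70 for CYP2, and -0.96 and -0.81 for SUBI. Cons4 gave -0.31 and -0.32. Cons6 gave -0.15 and 0.14, and ELF1B gave 0.10 and -0.12, so neither kept a sign. The log2 difference of NaCl minus mock in OE seedlings also differed between the numbers. It was -0.88 and -0.29 for CYP2 among libraries numbered 1 and 2, 0.44 and -0.20 for ELF1B, 0.27 and -0.28 for SUBI and 0.17 and 0.24 for Cons4.

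Stability over the whole experiment separated the 6 genes into a stable and a variable set. It was measured as the SD of log2 CPM over the 8 libraries, and set beside the 18520 loci with a mean of at least 10 CPM, whose median SD was 0.37. Cons6 had an SD of 0.12, and 3.34% of those loci (619) had a lower one. ELF1B had 0.16, with 7.66% of loci lower, and Cons4 had 0.20, with 15.4% lower. These 3 genes spanned 1.25-fold, 1.45-fold and 1.44-fold between their lowest and highest library. The other 3 genes were more variable than the median locus. SUBI had an SD of 0.49 (65.3% of loci lower), ACT11 of 0.51 (66.9% lower) and CYP2 of 0.79 (84.9% lower), and they spanned 2.19-fold, 2.43-fold and 3.82-fold. The SD that counting alone gives was 0.07 for Cons6 and ELF1B and 0.08 for Cons4, which is below their observed SDs but not negligible beside them. It was 0.01 for SUBI, 0.03 for CYP2 and 0.05 for ACT11. The coefficient of variation ranged from 8.66% for Cons6 to 59.5% for CYP2.

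The ranking within one genotype was another. Among the 4 WT libraries all 6 genes had an SD of 0.11 or less, and SUBI, at 0.02, was among the least variable loci, with 1.85% of loci lower. ELF1B (0.05), CYP2 (0.06), Cons6 (0.08), ACT11 (0.08) and Cons4 (0.11) followed, and 50.6% of loci had a lower SD than Cons4. Among the 4 OE libraries Cons4 had the lowest SD, 0.12 (8.41% of loci lower), and CYP2 the highest, 0.67 (83.8% lower). Between them lay Cons6 (0.17), SUBI (0.18), ELF1B (0.23) and ACT11 (0.28). The median SD of loci was 0.33 in OE and 0.11 in WT libraries.

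**Figure D3:**
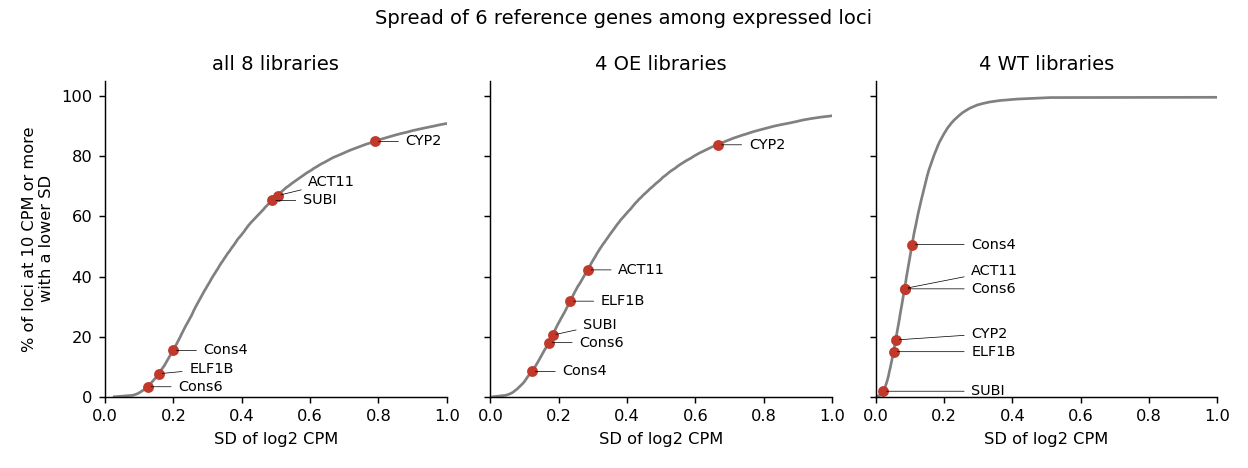
Share of loci with a mean of at least 10 CPM whose SD of log2 CPM is lower (vertical axis, percent) against that SD (horizontal axis), for all 8, the 4 OE and the 4 WT libraries; the grey line is the distribution over loci and the points are the 6 genes. Cons6, ELF1B and Cons4 lie low on the curve over all 8 libraries, and SUBI lies lowest on the curve of the WT libraries.

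By the 5 smallest SDs over 8 libraries among loci of at least 10 CPM, other loci were more stable than any of the 6 genes. Glyma.04G064900 had an SD of 0.027 around a mean of 27.3 CPM, with a lowest value of 26.5 and a highest of 28.0 CPM. Glyma.04G103900 had an SD of 0.045 around 179 CPM, Glyma.06G162100 of 0.048 around 23.6 CPM, Glyma.12G020200 of 0.051 around 33.1 CPM and Glyma.04G189600 of 0.052 around 50.4 CPM. They were picked as the most extreme of 18520 loci. Counting alone gives an SD of 0.04 for Glyma.04G103900 and of 0.08 to 0.12 for the other 4, whose observed SDs were all below it.

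A ratio of 2 genes within a library does not depend on the scaling between libraries. All 15 pairs were compared between the 4 OE and the 4 WT libraries with a two-sided exact permutation test of the mean log2 ratio, which cannot give a p below 0.0286, or 0.0390 after adjustment over the 15 pairs as observed. The test treats the 8 libraries as exchangeable. OE libraries of equal number were not independent, and OE libraries spread more than WT libraries, so its p can be too small. In 11 of 15 pairs the ratio differed at that smallest p, and in the same 11 the genotypes did not overlap. Pairs of other loci were not tested, so this count has no share of other pairs beside it. Of single tested loci, 38.7% had no overlap between the genotypes either. Each gene also enters several pairs, so the 15 pairs are not independent. Whether the count is particular to reference genes was not tested. The largest differences were those of CYP2 to SUBI, with a mean log2 ratio of -1.69 ± 0.66 in OE and -3.80 ± 0.06 in WT libraries, a difference of 2.12, and of ACT11 to CYP2, with -2.58 ± 0.92 in OE and -0.47 ± 0.11 in WT libraries, a difference of -2.10 (SD, n = 4 each, exact permutation adjusted p = 0.0390 for both). The ratio of Cons4 to Cons6 also differed, by -0.32 (-0.42 ± 0.20 in OE and -0.10 ± 0.06 in WT libraries, exact permutation adjusted p = 0.0390). The other 4 ratios missed the threshold. ACT11 to SUBI differed by 0.01, with -4.26 ± 0.38 in OE and -4.28 ± 0.09 in WT libraries (exact permutation adjusted p = 0.971). ELF1B to Cons6 differed by -0.01, with -0.03 ± 0.34 in OE and -0.02 ± 0.07 in WT libraries (exact permutation adjusted p = 0.971). ELF1B to Cons4 differed by 0.31 and CYP2 to ELF1B by 1.24 (exact permutation adjusted p = 0.107 and 0.132). Without any 1 WT library 0 of 15 pairs were called by this test, and without OE NaCl library 1 or 2 it called 12. In the 11 pairs the genotypes still did not overlap, because leaving out a library cannot create overlap. With 1 library fewer the test has fewer relabellings, so its p moves in coarser steps.

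Between the 4 NaCl and the 4 mock libraries 0 of 15 ratios were called, with an exact permutation adjusted p of 0.971 for each and a largest difference of 0.41 in size, in CYP2 to Cons4. The ratio that stayed level between the genotypes on average did not stay level between libraries of an OE group: OE minus WT for ACT11 to SUBI was 0.30 among libraries numbered 1 and -0.27 among those numbered 2, and for ELF1B to Cons6 it was 0.20 and -0.22.

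**Figure D4:**
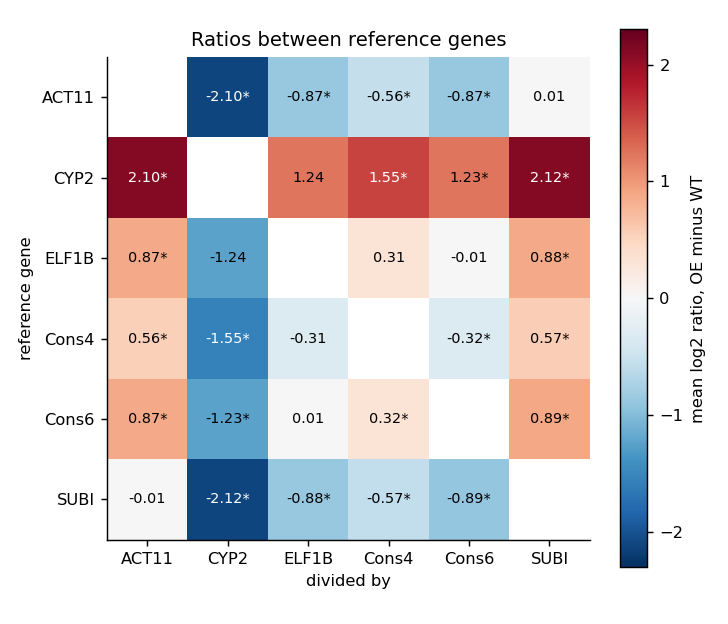
Mean log2 ratio of the gene in the row to the gene in the column, OE minus WT libraries (colour and number), with a star where an exact permutation test over 4 against 4 libraries reached an adjusted p of 0.0390. Every ratio that includes CYP2 is shifted by 1.23 or more in size, while ACT11 to SUBI and ELF1B to Cons6 are shifted by 0.01.

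The geNorm measure M, the mean SD of a gene's log2 ratios to the other genes, in which a lower value means a more constant ratio, was also computed. Over all 8 libraries it was 1.02 for CYP2, 0.59 for ACT11, 0.56 for SUBI, 0.46 for ELF1B, 0.45 for Cons6 and 0.43 for Cons4. Stepwise removal of the gene with the highest M left Cons4 and Cons6, with an M of 0.22. Among the 4 OE libraries it left Cons6 and SUBI at 0.17, after CYP2 had begun at 0.74. Among the 4 WT libraries it left ELF1B and Cons4 at 0.06, and all 6 genes began between 0.08 and 0.11.

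The last comparison shows what a choice of reference does to the rest of the transcriptome. Relative to the TMM-scaled library size, the geometric mean of the 6 genes was displaced on the log2 scale by -0.12 and -0.07 in OE NaCl libraries 1 and 2 and by -0.14 and 0.04 in OE mock libraries, against 0.02 and 0.09 in WT NaCl and 0.09 and 0.08 in WT mock libraries. With TMM scaling, the edgeR test of OE against WT on the mean of both treatments called 9847 loci, 5248 of them higher and 4599 lower in OE (53.3% higher), and the median log2 fold change of all tested loci was 0.02. With the 6 genes together as the scale it called 9887 loci, 6718 higher and 3169 lower (67.9% higher), and the median of all loci moved to 0.17. Scaling by Cons4, Cons6 and ELF1B together, chosen after their values were seen, gave 6016 higher and 3347 lower.

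A single gene as the reference could turn most of the transcriptome one way. Scaling by SUBI alone called 20101 loci higher and 872 lower in OE, and scaling by ACT11 alone 18593 higher and 963 lower, with the median of all loci at 0.91 in both. Scaling by CYP2 alone called 1564 loci higher and 17796 lower, with the median at -1.13. Scaling by Cons4 alone called 8849 higher and 2252 lower, with the median at 0.34. Scaling by Cons6 alone gave 5111 higher and 3377 lower, and scaling by ELF1B alone 4138 higher and 3414 lower, with medians of 0.03 and 0.04. The values of the genes themselves moved with these scales. Relative to CYP2 alone, ELF1B had a log2 fold change of -1.10 and Cons6 of -1.19, and relative to SUBI alone, Cons4 had one of 0.58. Relative to Cons4 alone, ACT11 (-0.54, edgeR adjusted p = 0.0783) and SUBI (-0.56, edgeR adjusted p = 0.0749) missed the threshold, and so did ACT11 relative to Cons6 alone (-0.83, edgeR adjusted p = 0.0533). Under RLE scaling, which takes no single gene as its base, 5613 loci were higher and 4160 lower.

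**Figure D5:**
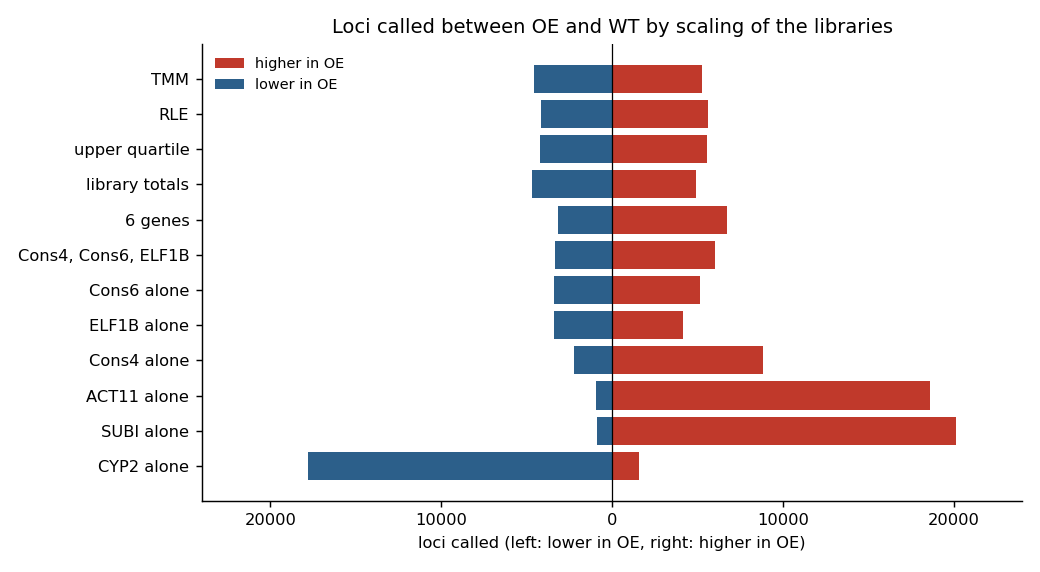
Number of loci called between OE and WT libraries on the mean of both treatments at an edgeR adjusted p of 0.05 (horizontal axis), lower in OE to the left and higher to the right, for each way of scaling the libraries. Scaling by SUBI or ACT11 alone puts 20101 or 18593 calls on the higher side and scaling by CYP2 alone puts 17796 on the lower side, while Cons6 or ELF1B alone leave a split near that of TMM.

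Loci whose log2 CPM followed a gene most closely over the 8 libraries were sought among the 18520 loci of 10 CPM or more, and the Pearson r is given as a description over libraries that share genotype, depth and replicate number. CYP2 was followed by Glyma.16G143600 (r = 0.999) and Glyma.06G004800 (r = 0.997), SUBI by Glyma.06G035300 (r = 0.998) and Glyma.09G047900 (r = 0.996), and ACT11 by Glyma.14G219300 (r = 0.996) and Glyma.10G214500 (r = 0.995). The 3 more stable genes had looser partners. Cons4 was followed by Glyma.19G072400 (r = 0.989) and Glyma.06G080600 (r = 0.983), Cons6 by Glyma.17G244600 (r = 0.979) and Glyma.10G096200 (r = 0.957), and ELF1B by Glyma.15G102600 (r = 0.970) and Glyma.04G166900 (r = 0.969). An r above 0.9 was shared with 2497 loci for ACT11, 2151 for CYP2 and 1867 for SUBI, but with 164 for Cons4, 64 for Cons6 and 31 for ELF1B.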

How the data were processed

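The deposited tables give, per the file headers, an expected count, an FPKM value and a length for each gene model. RSEM estimated the expected counts, per the submitters' processing notes. The aligner, genome build, annotation and RSEM version were not given in the sources used here. The authors' FPKM values were used only to compare levels between genes, and a model missing from a table was set to 0.

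The expected counts of a locus are the rounded sum over its models. Loci were filtered with filterByExpr, scaled with TMM and tested with edgeR 4.0.16 in R 4.3.3 (glmQLFit and glmQLFTest on all 8 libraries with 1 mean per group and 4 residual degrees of freedom), with Benjamini-Hochberg adjustment over all 34023 loci and a threshold of 0.05. Standard errors were derived from the F statistic. Log2 CPM used a prior count of 2. The common biological coefficient of variation was 32.9%. DESeq2 1.42.0, limma-voom (limma 3.58.1), other scalings, a fit with no filter, gene models as units, a replicate block, fits of only the compared groups and each library left out were alternatives. The fits and the permutation test were tested on simulated data with known changes. The simulated libraries were independent, unlike OE libraries of equal number here, so that dependence was not covered.

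All 6 genes are named in each comparison, with the 2 loci of highest Pearson r to each and the 5 loci of lowest SD. The genes, lists and tests were chosen with earlier results of these data known. Related gene families were not used here, because the reference table (RefSeq) pairs no locus ID with a product name, and no sequences are printed for the same reason. Intervals of fold changes come from the fit and include the spread between libraries, whereas the floor of 3 counts covers counting error only. At 247 counts or more per gene and library, counting error was small beside the differences called.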

Additional observations from a re-analysis of the deposited data

Results flagged for a closer look

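In the 4 WT libraries, ELF1B had 53.7 CPM in WT NaCl library 1, which stood apart from the other WT NaCl library at 57.6 CPM and the WT mock libraries at 58.0 and 57.5 CPM. The gap to the nearest library was 0.898 of the whole range, above Dixon's 95% critical value for 4 libraries. The 4 libraries of a genotype were taken as a group for this check, which was made for 12 groups (6 genes in 2 genotypes), and chance flags about 1 in 20 groups. The SD of ELF1B over these 4 libraries was 0.05 on the log2 scale, below the 0.07 that counting alone gives.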

How the results depend on the processing

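RLE, upper-quartile and library-total scaling, no filter, DESeq2, limma-voom, the replicate block and gene models as units kept the calls of ACT11, CYP2 and SUBI on the mean of both treatments. Scaling by 1 gene or by 3 genes, leaving out both OE libraries of equal number and a limma-voom weight per genotype were chosen after seeing the data. Of 1272 values of single genes and ratios under an alternative, 171 changed sign while missing the threshold both ways, and these are counted as unchanged here. The SD over libraries of each gene moved by less than its spread, and without 1 library it was 0.11 to 0.13 for Cons6, 0.09 to 0.17 for ELF1B, 0.18 to 0.21 for Cons4, 0.44 to 0.52 for SUBI, 0.44 to 0.54 for ACT11 and 0.66 to 0.84 for CYP2. The cause of the changes below was not tested.

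The replicate numbers are shared between groups only as numbers. Over 18520 loci the difference of library 2 from library 1 correlated at r = 0.77 between OE NaCl and OE mock, and at -0.03 to 0.01 in every other pair of groups. With the replicate block, edgeR called 4671 loci (13.7%) in mock, 4118 (12.1%) in NaCl and 11165 (32.8%) on the mean of both treatments. Of the genes it called 2 in mock (ACT11 with an edgeR adjusted p of 0.0497 and CYP2 with 0.0439) and 3 on the mean of both treatments. The block changed no other call of the genes.

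In mock, DESeq2 called 5146 loci (3 genes), gene models as units gave 1193 models, library totals 1 gene (beside 8.98% of loci) and the 4 mock libraries alone 1 gene (10.4% of loci). In NaCl, DESeq2 called 4620 loci (1 gene), gene models as units 1076 models and the 4 NaCl libraries alone 173 loci. The 4 WT libraries alone gave 15 loci between NaCl and mock, none of them among the 6 genes. A weight per genotype called 3 genes in mock (12.4% of loci) and 2 in NaCl (10.5%).

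Without OE libraries of 1 number, each remaining OE library is assumed to vary like the WT libraries. Without those numbered 1, OE against WT called 19354 of 34608 loci (55.9%, 3 genes) in NaCl and 19590 (56.6%, 4 genes) in mock. On the mean of both treatments it called 23247 (67.2%, 5 genes). Without those numbered 2 it called 16171 of 34485 loci (46.9%, 4 genes) in NaCl and 16306 (47.3%, 4 genes) in mock. On the mean of both treatments it called 19782 (57.4%, 4 genes). NaCl against mock then called, without those numbered 1, 509 loci (1.47%, 2 genes) in OE and 18 (0.052%) in WT. It called 273 (0.789%, 2 genes) on the mean of genotypes, and the interaction 198 (0.572%, 1 gene). Without those numbered 2 these counts were 7802 (22.6%, 3 genes), 19 (0.0551%), 5219 (15.1%, 3 genes) and 5468 (15.9%, 3 genes). SUBI then turned to log2 fold changes of 0.32 in OE and 0.17 on the mean of genotypes and an interaction of 0.30.

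With 1 gene as the scale, mock gave 7132 loci (21%) and 1 gene by ACT11, and 12988 (38.2%) and 4 genes by CYP2. It gave 1388 loci (4.08%) by ELF1B, 5308 (15.6%) and 1 gene by Cons4, and 13089 (38.5%) and 3 genes by SUBI. NaCl gave 6965 loci (20.5%) by ACT11, 1294 (3.8%) by CYP2, 1652 (4.86%) by ELF1B, and 12567 (36.9%) and 3 genes by SUBI. On the mean of both treatments ACT11 gave 19556 loci (57.5%) and 3 genes, and CYP2 19360 (56.9%) and 5 genes. Cons4 gave 11101 (32.6%) and 1 gene, and SUBI 20973 loci (61.6%) and 4 genes. Signs turned in mock for Cons6 by CYP2 (-1.47) and ELF1B by SUBI (0.79), in NaCl for Cons6 by SUBI (0.90), and on the mean for SUBI by ACT11 (0.022), ELF1B and Cons6 by CYP2 (-1.10 and -1.19), and ACT11 and Cons4 by SUBI (0.048 and 0.58). With the 6 genes as the scale, 63.5% of calls in NaCl and 64.4% in mock were higher in OE, against 45.9% and 47.1% with TMM.

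Leaving out 1 library at a time gave 0 to 7204 loci and 0 to 3 genes in NaCl, 1 to 8137 loci and 0 to 3 genes in mock, and 3055 to 14766 loci and 0 to 3 genes on the mean of both treatments. NaCl against mock gave 0 to 218 loci in OE and 0 to 58 on the mean of genotypes, the interaction 0 to 57, and the ratios of genes 0 to 12 pairs. Between OE and WT the fewest loci were called without a WT library. Without OE NaCl library 2, 218 loci were called between OE NaCl and OE mock. Depth was similar in all libraries and limits mainly the SDs of Cons4, Cons6 and ELF1B, where counting alone gives 0.07 to 0.08.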
